A study of Mus musculus with 2 samples.

Results

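The cell cycle genes are 40 genes that cells use to copy their DNA and divide: 20 genes of the G2 phase and mitosis (G2/M), 17 genes of DNA synthesis (S phase), and 3 genes, Stmn1, Hmgb2 and Smc2, that are not tied to 1 phase here. They were chosen by name, and all 40 were found among the 31053 gene rows of both count tables. The data are single cell RNA sequencing of pancreatic islets from wild type NOD/ShiLtJ mice aged 15 weeks, a strain in which immune cells invade the islets and autoimmune diabetes can follow. Mice were fed either a diet of 16% HC + 4% gluten, called gluten below, or a diet of 20% HC, called HC; the labels do not spell out HC. Handpicked islets were dissociated, and cells of 3 mice per diet were pooled into 1 droplet library with 3' chemistry version 3. Each diet therefore has 1 library and no replicate, so no test between diets could be made. The 95% intervals below cover counting error only (exact Poisson for sums of molecules, exact Clopper-Pearson for shares, Newcombe for differences between shares), not differences between mice or libraries. Those of sums and their ratios treat each molecule as independent, so they do not cover the gathering of molecules in few cells. A UMI is the tag that marks 1 captured RNA molecule.

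S phase genes make nucleotides and load and copy DNA: the Mcm2 to Mcm7 proteins form the replicative helicase, Rrm1 and Rrm2 form ribonucleotide reductase, and Pcna is the clamp that holds the polymerase on DNA. G2/M genes drive mitosis: the kinase Cdk1 with the cyclins Ccna2, Ccnb1 and Ccnb2, the mitotic kinases Plk1, Aurka, Aurkb and Bub1, and Ube2c and Cdc20 of the complex that ends mitosis by marking cyclins for destruction. Dividing lymphocytes are a known feature of inflamed islets, while adult endocrine cells divide rarely.

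After filters, 7122 cells of the gluten library and 7111 of the HC library were kept, and cells were assigned by marker genes that hold no cell cycle gene. The gate gave 1189 and 2210 T cells (gluten, then HC, here and below), 834 and 1124 B cells, 249 and 225 macrophages, 3180 and 2668 endocrine cells, and 498 and 274 stroma cells, the last being endothelial plus mesenchymal cells. These 5 classes held 83.5% and 91.4% of the kept cells; 935 and 423 cells passed no gate. The median UMIs per cell were 2297 and 2761 in T cells but 13261.5 and 28041.5 in endocrine cells, so shares of cells with a UMI cannot be read across classes or libraries without equal depth. Acinar enzyme genes, which T cells do not make, stood at 223 and 83.1 CPM in T cells, CPM being UMIs of a gene in 1000000 UMIs of all genes in the class. Over all kept cells, acinar cells among them, these genes stood at 1377 and 3915 CPM. Whether their UMIs in T cells come from free RNA was not tested. In all, 15 cell barcodes occurred in both libraries.

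All 40 cell cycle genes had their highest level among the 5 classes in T cells, in both libraries. The 40 genes together gave 3625 CPM (95% interval 3566 to 3684) in T cells of the gluten library and 3976 CPM (3934 to 4019) in those of the HC library. B cells followed with 1677 and 1209 CPM, then macrophages with 1063 and 762 CPM. Stroma cells gave 444 and 695 CPM, and endocrine cells were lowest at 121 and 109 CPM. The T, B, macrophage, stroma and endocrine order was the same in both libraries. The order of B cells and macrophages held for each library beyond counting error, as did that of macrophages and stroma in the gluten library, whereas in the HC library macrophages and stroma lay close together.

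**Figure D1:**
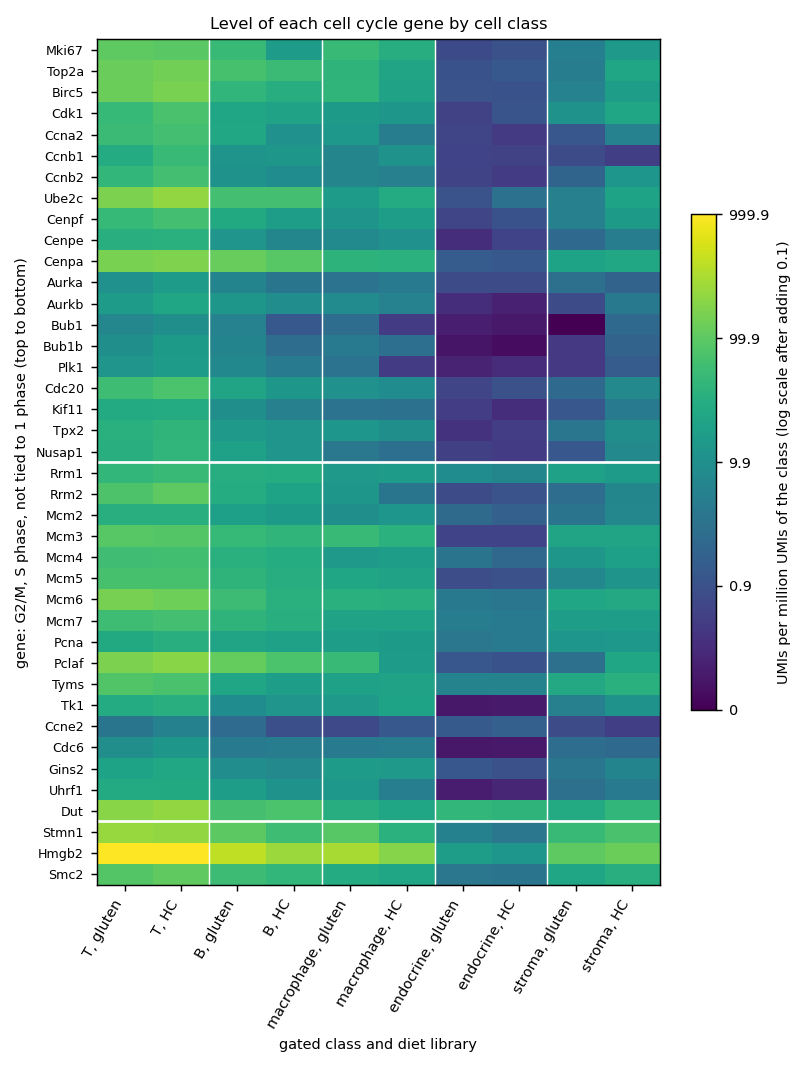
Level of each of the 40 genes (rows) in the 5 gated classes of both diet libraries (columns), in CPM of the class on a log colour scale after adding 0.1. Rows should be read from left to right only; each row is brightest in the T cell columns, and Dut keeps a bright band in endocrine cells.

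The G2/M genes marked a small, distinct group of T cells. Of the T cells, 68.1% in each library had no UMI of any G2/M gene, and 18.2% and 19.8% had exactly 1. At the other end, 68 cells (5.72%, 95% interval 4.47 to 7.19) and 107 cells (4.84%, 3.98 to 5.82) had 10 or more, and only 14 cells in each library fell between 5 and 9. The threshold of 10 was set after the distribution was seen. These few cells, called G2/M-high below, held 88.8% and 92.8% of all G2/M UMIs of T cells, with a median of 41.5 and 70.0 per cell and up to 221 and 374. Their libraries were also larger: a median of 8680.5 and 16096 UMIs, which is 4.07 and 6.15 times that of T cells with no G2/M UMI. The T cell marker score was no lower in them (median 0.481 and 0.495) than in T cells without G2/M UMIs (0.450 and 0.479), and their median B cell and macrophage marker scores were 0. Scrublet scores had led to removal of 1 and 2 further T cells of this kind.

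**Figure D2:**
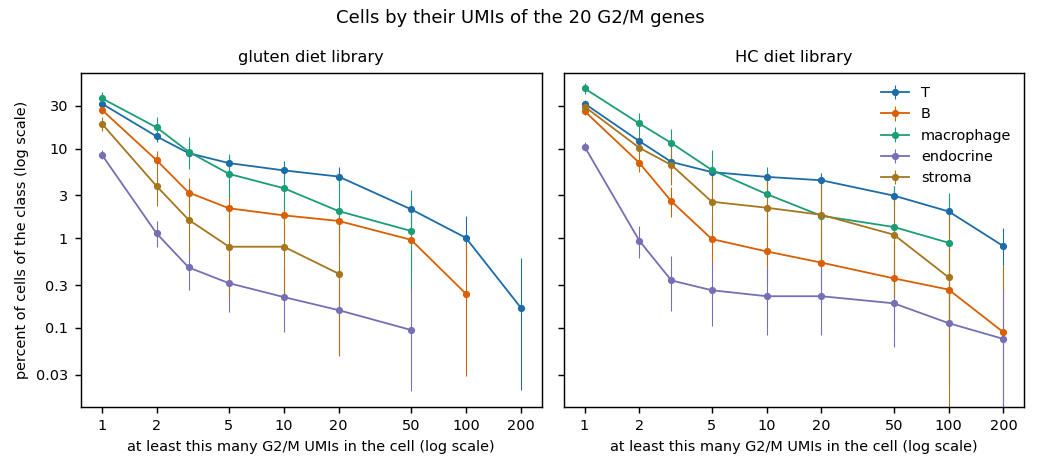
Percent of cells of each class (vertical, log scale) with at least the number of G2/M UMIs on the horizontal axis (log scale), by diet library; bars are exact 95% binomial intervals, and points with 0 cells are not drawn. The T cell curve is nearly flat between 5 and 20 UMIs, where the 5.72% and 4.84% of cells with 10 or more lie, and the endocrine curve lies lowest.

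S phase genes were high in the same T cells. Summed S phase genes stood at 353 and 326 CPM in T cells without G2/M UMIs, 514 and 393 CPM in those with exactly 1, and 807 and 579 CPM in those with 2 to 4. They reached 2535 and 2403 CPM at 5 to 9 G2/M UMIs and 3452 and 3880 CPM at 10 or more. With 10 UMIs as the mark for each phase, 54 and 95 T cells passed for both, 30 and 27 for S phase only, and 14 and 12 for G2/M only. The cells past the mark for S phase only had a median of 19 and 17 S phase UMIs and 2 and 2 G2/M UMIs. Cells past the G2/M mark only had a median of 30.5 and 36.5 G2/M UMIs beside 4.5 and 6 S phase UMIs.

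Among the G2/M genes, most had nearly all their T cell UMIs in these cells, with each gene's own UMIs left out of the choice of cells. The median gene had 93.4% and 97.4% of its T cell UMIs there. Ccna2, the cyclin of S phase and G2, had 99.1% and 98.9%, and Nusap1, which bundles spindle microtubules, had 97.0% and 98.4%. Birc5 (survivin), part of the chromosomal passenger complex with Aurkb, stood at 609 and 657 CPM there against 10.8 and 2.73 CPM in the other T cells. Ube2c stood at 763 and 953 CPM against 9.08 and 7.44 CPM. Mki67, the proliferation marker that coats mitotic chromosomes, had 88.1% and 93.2% of its UMIs there, and Top2a, the topoisomerase that untangles sister DNA, 81.4% and 88.7%. The checkpoint and mitotic kinases were sparse: Bub1, Bub1b, Plk1 and Aurka had 28 to 48 UMIs in all T cells of the gluten library and 84 to 135 in those of the HC library. Bub1b and Plk1 had 94.9% and 93.8% of their gluten UMIs in the G2/M-high cells. Aurka had 69.0% and 91.9%. The spindle genes Cenpe, Cenpf, Kif11 and Tpx2 had between 87.3% and 97.9% in the gluten library and between 93.9% and 98.0% in the HC library.

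Cenpa, the histone H3 variant of centromeres, was the exception with 64.1% and 69.9%, the lowest share of the 20 genes in each library. It stood at 69.9 and 66.8 CPM in T cells outside the group, where 15.9% and 17.2% of cells had a Cenpa UMI. Cenpa also made up much of the low end. Of the T cells with exactly 1 G2/M UMI, 120 of 216 and 250 of 437 had it from Cenpa, that is 55.6% (48.7 to 62.3) and 57.2% (52.4 to 61.9). In B cells the same count was 111 of 165 and 170 of 217, or 67.3% and 78.3%. In endocrine cells it was 37 of 237 and 28 of 257, or 15.6% and 10.9%, where Aurka gave 32 and 37 of these UMIs.

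S phase genes had a smaller part of their T cell UMIs in the G2/M-high cells, a median of 61.4% and 73.2%; these cells were chosen by G2/M UMIs, so the gap to the G2/M genes is set in part by that choice. In T cells with 10 or more S phase UMIs, again without a gene's own, the median S phase gene had 77.1% and 83.0% and the median G2/M gene 80.9% and 88.9%. Pclaf, a Pcna partner, had 89.0% and 96.6% and Rrm2 85.9% and 96.1%, close to the G2/M genes. Mcm6 had 35.4% and 48.5%, Mcm4 40.9% and 52.8%, and Pcna 46.3% and 50.9%. The nucleotide enzymes Tyms and Tk1 had 73.6% and 80.2% and 80.9% and 88.3%, while Rrm1, the large subunit beside Rrm2, had 63.5% and 67.7%. Cdc6, which loads the helicase, had 38 and 113 UMIs, of which 71.1% and 96.5% lay there. Dut, which removes dUTP so that uracil does not enter DNA, had 61.4% and 72.2%. Outside the group, 22.2% and 18.1% of T cells had an Mcm6 UMI and 17% and 18% a Dut UMI. Hmgb2, a chromatin protein, was seen in 57.5% and 51.2% of the T cells outside the group and in all cells of it. Its level was 3220 and 3339 CPM inside against 464 and 324 CPM outside. Stmn1, which destabilizes microtubules, stood at 966 and 876 CPM against 58.2 and 29.2 CPM, and Smc2, a condensin subunit, at 283 and 323 CPM against 33.2 and 39.4 CPM.

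**Figure D3:**
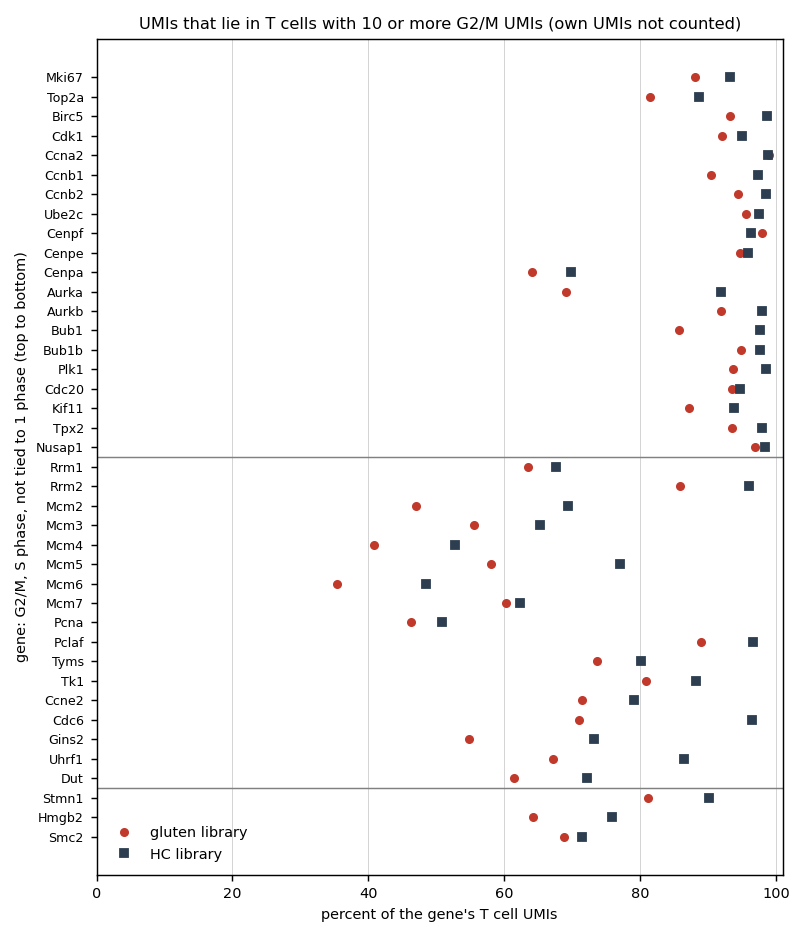
Percent of each gene's T cell UMIs (horizontal) that lie in T cells with 10 or more G2/M UMIs, by diet library; for a G2/M gene its own UMIs were not counted when the cells were chosen. Most G2/M genes lie above 85%, Cenpa lies at 64.1% and 69.9%, and Mcm6 is lowest at 35.4% and 48.5%.

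The start sites of these genes are shown because mitotic and S phase genes are known to be controlled through short promoter elements: the CCAAT box bound by NF-Y, the cell cycle genes homology region (CHR) bound by the DREAM and MuvB complexes, and E2F sites. RefSeq gave a promoter window for 33 of the 40 genes (assembly GRCm38.p6), of which the 250 bases before the start were searched on both strands. CCAAT was found in 15 of 17 G2/M windows (88.2%) and in 10 of 14 S phase windows (71.4%), against 33.8% of all 32851 windows. At least 2 CCAAT boxes were found in 11 of 17 and 6 of 14, against 10.1% of all. A CHR match, searched as TTTGAA or TTCGAA, was found in 8 of 17 G2/M windows (47.1%) and 2 of 14 S phase windows (14.3%), against 17.1% of all. An E2F match, searched as TTTCCCGC, TTTCGCGC, TTTGCCGC or TTTGGCGC, was found in 1 of 17 G2/M windows (5.88%) and 4 of 14 S phase windows (28.6%), against 1.86% of all. A match is a run of letters and not a shown binding site.

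The windows of the 3 G2/M genes with the most T cell UMIs, Ube2c, Cenpa and Birc5, and of the S phase gene Pclaf are printed from 5′ to 3′ with matches in capitals, up to the first base annotated as exon. Dut has more UMIs than Pclaf, but its window opens inside an exon. All 4 genes lie on the + strand, at chr2:164769679-164769897 for Ube2c, chr5:30666636-30666776 for Cenpa, chr11:117848987-117849236 for Birc5 and chr9:65890073-65890236 for Pclaf.
Ube2c: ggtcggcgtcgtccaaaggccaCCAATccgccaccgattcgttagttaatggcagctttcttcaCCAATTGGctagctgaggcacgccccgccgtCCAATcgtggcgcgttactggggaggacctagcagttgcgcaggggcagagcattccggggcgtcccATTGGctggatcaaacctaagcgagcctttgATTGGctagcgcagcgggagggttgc
Cenpa: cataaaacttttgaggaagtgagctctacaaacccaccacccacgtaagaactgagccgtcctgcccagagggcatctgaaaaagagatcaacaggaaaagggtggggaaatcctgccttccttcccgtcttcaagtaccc
Birc5: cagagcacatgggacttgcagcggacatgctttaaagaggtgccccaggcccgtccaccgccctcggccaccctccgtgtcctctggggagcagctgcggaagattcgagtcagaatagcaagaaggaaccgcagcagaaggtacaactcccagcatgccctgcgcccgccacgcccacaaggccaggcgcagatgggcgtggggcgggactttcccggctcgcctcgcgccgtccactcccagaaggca
Pclaf: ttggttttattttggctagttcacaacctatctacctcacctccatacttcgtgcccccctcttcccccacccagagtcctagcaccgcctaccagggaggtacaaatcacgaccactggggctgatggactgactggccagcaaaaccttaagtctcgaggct
Ube2c holds 6 CCAAT boxes, counting both strands, 2 of which overlap, and a CHR match in the 31 exonic bases that were left out. The 2 CCAAT boxes of Cenpa and the 2 of Pclaf also lie in the exonic bases left out, 109 and 86 of them. The Birc5 window holds none of the matches searched. The sequence is that of the reference strain, not of NOD mice.

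Other genes of the cycle were described in T cells with 10 or more G2/M UMIs against T cells with none, as log2 ratios of CPM. Of 16 other G2/M genes and 12 other S phase genes, all had an interval above 0 in both libraries, with medians of 4.64 and 4.94 (over the 14 and 13 G2/M genes seen in both kinds of cell) and of 2.91 and 3.10. With the G2/M genes that had 0 UMIs in the T cells without G2/M UMIs set to a floor of 3 UMIs there, the G2/M medians were 4.64 and 5.11. Examples are Cdca8, a partner of Aurkb and Birc5, at 5.73 (4.83 to 6.81) and 6.40 (5.66 to 7.24), and Gmnn (geminin), which blocks relicensing of origins, at 4.35 and 4.98. Of 11 regulators, 10 were above 0 in both. E2f1 stood at 4.18 and 5.81, while Myc, at 0.47 (-0.36 to 1.27) and -0.07 (-0.57 to 0.41), was the regulator whose intervals held 0 in both libraries. Mybl2 had 33 and 58 UMIs in these cells against 1 and 1 in T cells with no G2/M UMI. Cyclin E1 (Ccne1), which starts S phase, stood at 3.72 and 4.22. Relative to all RNA of the cells, cyclin D2 (Ccnd2) was lower in the G2/M-high cells at -1.20 (-1.60 to -0.82) and -1.17 (-1.36 to -0.98), and Ccnd3 at -0.36 and -0.66. As UMIs, Ccnd2 had 66 in 68 cells against 353 in 810 cells of the gluten library, and Ccnd3 had 168 against 503.

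Of 12 cycle inhibitors, 4 had intervals above 0 and 4 below 0 in both libraries. Cdkn2c (p18) was higher at 3.28 and 2.57, and Cdkn2a at 2.50 and 1.76. Cdkn1b (p27), which restrains Cdk2, was lower at -1.12 and -1.39. The antiproliferative genes Btg1 and Btg2 were lower at -1.88 and -2.29 and at -0.96 and -1.69. Lower CPM in the large G2/M-high cells is relative to all RNA of those cells: Btg1 had 466 UMIs in 68 cells and 3987 in 810 cells of the gluten library.

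Among genes outside the 40, a comparison of T cells with 2 or more G2/M UMIs against T cells with none was made in the HC library, and the 10 genes with the largest ratio were then read in the gluten library, which had no part in choosing them. They were Hist1h1b, Spc24, Hmmr, Cdca3, Cep55, Ncapg, Knl1, Cdkn3, Chaf1a and Cdca8, of which Hmmr, Cdca3, Knl1 and Cdca8 are also in the lists of other cycle genes above. Hist1h1b, a linker histone, had 138 UMIs in the gluten cells with 2 or more G2/M UMIs and 0 in those with none. Against a floor of 3 UMIs summed over the latter it was at least 63.9-fold higher, and at least 350-fold higher in the HC library. Hmmr, a spindle protein, had 90 UMIs against 0 in the gluten library, at least 41.7-fold higher. All 10 genes had a ratio of at least 22.7 in the gluten library when counts under 3 were set to 3.

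The G2/M-high T cells were of both main lineages. Of the T cells with 10 or more G2/M UMIs, 28 of 68 and 47 of 107 had UMIs of Cd8a or Cd8b1 without Cd4 (41.2% and 43.9%), and 21 of 68 and 33 of 107 had Cd4 only (30.9% and 30.8%). Another 6 of 68 and 11 of 107 had both (8.82% and 10.3%), against 0.62% and 1.20% of T cells without G2/M UMIs. Whether any of these are 2 T cells in 1 droplet was not tested beyond the Scrublet score. Foxp3, the factor of regulatory T cells, had a UMI in 15 of 68 and 21 of 107 (22.1% and 19.6%), against 5.19% and 5.12% of T cells without G2/M UMIs. The larger UMI number of the G2/M-high cells bears on these shares, since 58.4% and 49.6% of the T cells without G2/M UMIs had neither Cd4 nor Cd8 UMIs, against 19.1% and 15.0%. As CPM, Foxp3 did not differ beyond counting error, with log2 ratios of -0.09 (-0.82 to 0.60) and -0.34 (-0.87 to 0.16). Cd8a was higher at 0.32 (0.09 to 0.55) and 0.75 (0.60 to 0.90), while Cd8b1, the other CD8 chain, stood at 0.07 (-0.24 to 0.38) and 0.29 (0.12 to 0.46). Cd4 was lower relative to all RNA of the cells, at -0.49 (-0.95 to -0.05) and -1.66 (-1.996 to -1.35). As UMIs, Cd4 had 55 in 68 cells against 180 in 810 cells of the gluten library.

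Between diets, T cells gave no clear order. Summed over all T cells, the 40 genes were lower in the gluten library by a log2 ratio of -0.13 (-0.16 to -0.11), the G2/M genes by -0.31 (-0.36 to -0.26) and the S phase genes by -0.10 (-0.15 to -0.05). The mean over cells of the genes' share of UMIs went the other way, with a log2 ratio of 0.23. The share of T cells with 2 or more G2/M UMIs was 13.7% (11.8 to 15.8) and 12.1% (10.8 to 13.6), a difference of 1.58 points (-0.75 to 4.03). Thinned shares, here and below, are the mean over all random draws of a fixed number of UMIs per cell. With cells thinned to 1792 UMIs it was 10.9% and 7.90%, a difference of 3.03 points (0.75 to 5.51), with 295 and 263 shallower cells left out. At 1000 UMIs the shares were 6.38% and 5.19%, a difference of 1.19 points (-0.45 to 2.98). Without Cenpa the difference, unthinned, was 2.47 points (0.47 to 4.61). The G2/M-high cells held 20.6% and 23.3% of all T cell UMIs, and 12 and 44 of them had 100 or more G2/M UMIs. Because the shares of cells and the sums point in opposite directions, no order of the diets is read from either. Endocrine cells, in which these genes are little used, had 2 or more G2/M UMIs in 1.13% and 0.94% of cells at several times the depth of T cells.

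Gene by gene, 39 of the 40 genes had at least 50 UMIs in the T cells of the library where they were higher. None was at least 2-fold higher or lower with gluten, against 1.89% and 2.59% of the 8147 genes measured in T cells, and 3 were at least 1.5-fold apart, against 15.5%. Without the 50 UMI minimum, Ccne2, with 14 and 48 UMIs, stood at -0.69 (-1.66 to 0.20). The median log2 ratio of the 39 genes was -0.24, beside -0.10 for all measured genes; for the G2/M genes it was -0.39 and for the S phase genes -0.13. Of the 39, 17 had an interval below 0 and 1, Mcm6, an interval above 0; among all genes 24.1% were below and 13.5% above. Ccnb1 (cyclin B1) was lowest at 28.8 and 49.4 CPM, a log2 ratio of -0.78 (-1.09 to -0.48). Cdk1, its kinase, stood at 47.0 and 70.1 CPM and Ube2c at 164 and 227 CPM, ratios of -0.58 (-0.82 to -0.34) and -0.47 (-0.60 to -0.34). Mki67 stood at 100 and 95.8 CPM with a ratio of 0.06 (-0.11 to 0.24). Mcm6 stood at 151 and 131 CPM with a ratio of 0.21 (0.06 to 0.35), and Hmgb2 at 1031 and 1028 CPM. Per cell, 5.30% and 4.57% of T cells had 2 or more Mki67 UMIs and 2.02% and 2.71% had 2 or more Ccnb1 UMIs, with intervals that overlap.

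**Figure D4:**
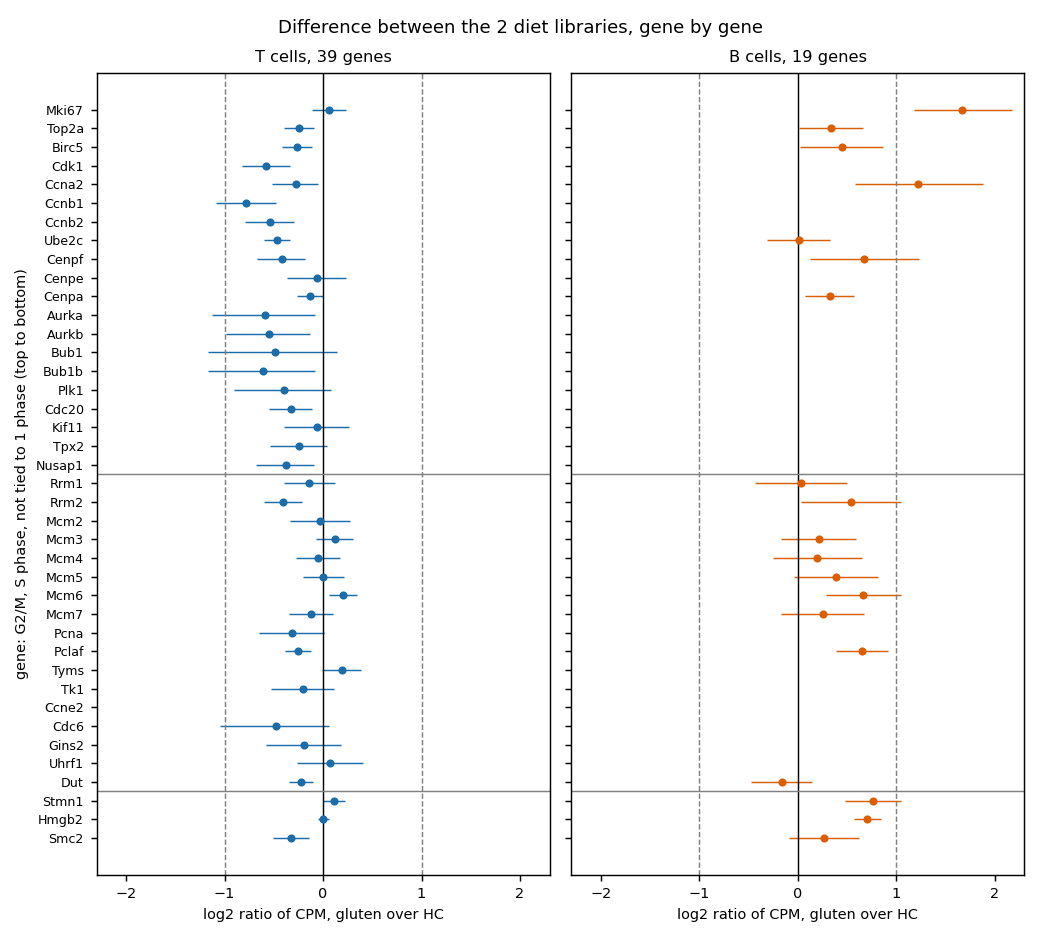
Log2 ratio of CPM, gluten over HC (horizontal), for each gene with at least 50 UMIs in the library where it was higher, in T cells (39 genes) and B cells (19 genes); bars are exact 95% counting intervals with 1 library per diet, and dashed lines mark 2-fold. T cell ratios lie between -0.78 and 0.21, while in B cells Mki67 and Ccna2 lie past 2-fold.

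T cells were also split by Cd4, Cd8 and Foxp3 UMIs, and those with both or neither of Cd4 and Cd8 are not ranked here. Of the groups given, T cells with Cd4 UMIs only differed most in the share with 2 or more G2/M UMIs. It was 48 of 235 (20.4%) and 82 of 614 (13.4%), a difference of 7.07 points (1.57 to 13.2), and 17.1% and 8.71% when thinned to 1876 UMIs. The G2/M sum of T cells with Cd4 UMIs only did not differ beyond counting error (1591 and 1553 CPM, log2 ratio 0.03, -0.05 to 0.12). T cells with Cd8 UMIs only had 17.2% and 19.8%, a difference of -2.60 points (-7.81 to 3.00), and a G2/M sum of 1339 and 1989 CPM. T cells with a Foxp3 UMI had 32.9% and 29.1%, a difference of 3.80 points (-8.09 to 16.3). Whether the diet difference itself differed between these groups was not tested. Of the other listed cycle genes with at least 50 UMIs, 1 was at least 2-fold apart in T cells: Cdkn1a (p21), the inhibitor induced by p53, with 181 and 156 UMIs, a log2 ratio of 1.31 (0.99 to 1.62). Below that minimum Foxm1, a factor of mitotic genes, had 34 and 33 UMIs, a ratio of 1.14 (0.40 to 1.87).

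In B cells the 40 genes were higher in the gluten library, by a log2 ratio of 0.47 (0.41 to 0.54) in the sum. The G2/M genes stood at 550 and 397 CPM and the S phase genes at 562 and 455 CPM. A handful of cells held much of the sum: 15 of 834 (1.80%) and 8 of 1124 (0.71%) had 10 or more G2/M UMIs, a difference of 1.09 points (0.10 to 2.29). They held 74.9% and 71.6% of the G2/M UMIs, and 63.0% and 54.9% of the UMIs of all 40 genes. In the HC library 1 cell had 464 G2/M UMIs. Without the cell of the most cell cycle UMIs in each library the log2 ratio was 0.69, and with a stricter gate it was 1.15. The B cell marker score of the G2/M-high B cells was a median of 0.409 and 0.310, against 0.398 and 0.468 in B cells without G2/M UMIs. In the 8 HC cells the median T cell and macrophage scores were 0.013 and 0.0088, against 0 in B cells without G2/M UMIs. Whether any are 2 cells in 1 droplet was not tested beyond the Scrublet score. The share with 2 or more G2/M UMIs was 7.43% and 6.94%, a difference of 0.49 points (-1.79 to 2.89), and 5.71% and 2.98% when thinned to 1703 UMIs, a difference of 2.74 points (0.74 to 5.02). With the stricter gate the unthinned difference was -0.04 points (-2.54 to 2.64). With the 17 S phase genes in place of the G2/M genes it was -3.71 points (-6.59 to -0.75), also unthinned.

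Of 19 genes measured in B cells, 2 passed a 2-fold difference toward gluten, against 1.19% of 5796 genes, and none passed it toward HC, against 3.24%. At 1.5-fold in either direction 7 of 19 passed, against 17.1% of genes, and with a minimum of 10 UMIs 4 of 39 were 2-fold apart, against 10.3%. Mki67 stood at 49.0 and 15.4 CPM (102 and 54 UMIs), a log2 ratio of 1.67 (1.18 to 2.17), and Ccna2 at 24.0 and 10.3 CPM, a ratio of 1.22 (0.58 to 1.88). Ube2c did not move with them, at 64.4 and 64.0 CPM and a ratio of 0.01 (-0.31 to 0.32). All 3 rest on few cells. Of the Mki67 UMIs, 96 of 102 and 45 of 54 came from 15 and 8 cells with 10 or more UMIs of the other G2/M genes. Cells chosen in this way gave 50 of 50 and 34 of 36 Ccna2 UMIs, and 122 of 134 and 209 of 224 Ube2c UMIs. Dut stood at 65.8 and 73.7 CPM, the only measured member with a ratio below 0, at -0.16 (-0.47 to 0.14). The median was 0.39 for the 19 genes beside -0.15 for all genes.

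In macrophages the sum was also higher in the gluten library, with a log2 ratio of 0.48 (0.38 to 0.58). Median depth differed by diet, at 5765 and 11417 UMIs per cell. The share of cells with 2 or more G2/M UMIs was 17.3% and 19.1%, and 7.01% and 3.62% when thinned to 1753 UMIs, a difference of 3.39 points (-1.11 to 8.33). Without Cenpa the unthinned difference went from -1.84 to 0.72 points (-5.59 to 6.92). In the gluten and HC libraries 9 of 249 and 7 of 225 cells had 10 or more G2/M UMIs, and these held 67.5% and 71.3% of the G2/M UMIs of the class. Of the 12 genes measured there, 3 passed a 2-fold difference toward gluten, against 2.38% of 4752 genes, and none toward HC, against 2.23%. At 1.5-fold in either direction 7 of 12 passed, against 15.8% of genes, and with a minimum of 10 UMIs 6 of 34 were 2-fold apart, against 10.4%. They were Pclaf at 49.4 and 15.7 CPM, with a log2 ratio of 1.66 (1.09 to 2.25), Stmn1 at 90.4 and 36.4 CPM, with 1.31 (0.92 to 1.71), and Birc5 at 41.6 and 20.4 CPM, with 1.03 (0.48 to 1.59). Of the Pclaf UMIs, 54 of 76 and 29 of 40 came from the 9 and 7 cells with 10 or more G2/M UMIs. For Stmn1 it was 81 of 139 and 53 of 93. Of the Birc5 UMIs, 59 of 64 and 46 of 52 came from 9 and 6 cells with 10 or more UMIs of the other G2/M genes. Ube2c was lower at 16.3 and 29.0 CPM, with -0.83 (-1.55 to -0.16), and 69 of its 74 HC UMIs came from 6 HC cells chosen in this way. Cenpa, at 39.0 and 36.0 CPM, did not differ beyond counting error.

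In endocrine cells S phase genes and G2/M genes parted. The S phase genes stood at 83.1 and 74.8 CPM, and Dut alone gave 44.2 and 40.2 CPM. Of the 2671 and 3308 Dut UMIs, 1.5% and 0.97% lay in endocrine cells with 10 or more G2/M UMIs; for Rrm1 it was 2.51% and 1.44%. The G2/M genes stood at 10.9 and 14.0 CPM. Only 7 of 3180 and 6 of 2668 endocrine cells had 10 or more G2/M UMIs (0.22% and 0.22%), and these held 51.6% and 73.9% of all G2/M UMIs of the class. Another 5 and 3 cells of this kind had been removed for high Scrublet scores, among 231 and 202 removed endocrine cells.

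These endocrine cells carried hormone RNA, and some also carried immune marker UMIs. Insulin genes Ins1 and Ins2 gave the most hormone UMIs in 5 of 7 and 5 of 6 cells. The HC cell with the most had 353 G2/M UMIs among 84841 UMIs, with 42188 insulin UMIs, 2 UMIs of T cell markers and none of Ptprc (CD45, on all leukocytes). Ptprc was seen in 2 of 7 and 2 of 6 of these cells with at most 6 and 4 UMIs, against 1.58% and 3.27% of endocrine cells without G2/M UMIs. T cell marker UMIs were at most 6 and 3 per cell, and macrophage marker UMIs at most 6 and 22. As levels, macrophage markers stood at 49.2 and 197 CPM in these cells, against 51.7 and 41.2 CPM in endocrine cells without G2/M UMIs, and Ptprc at 41.0 and 29.8 CPM, against 1.07 and 1.41 CPM. The 2 HC cells with 19 and 22 macrophage marker UMIs had 4 Ptprc UMIs each. Hormones were mixed in some: 1 HC cell had 3364 UMIs of Gcg (glucagon) and 3727 of Sst (somatostatin), and 1 gluten cell had 26491 insulin and 7013 Sst UMIs. Whether any of them are 2 cells in 1 droplet was not tested beyond the Scrublet score.

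Between diets, 2 of the 24 genes measured in endocrine cells passed a 2-fold difference toward HC, against 0.39% of 12303 genes, and none toward gluten, against 3.39%. At 1.5-fold in either direction 5 passed, against 12.9%. Ube2c had 58 and 248 UMIs, a log2 ratio of -1.65 (-2.09 to -1.23), but 112 and 71 of the HC UMIs came from 2 cells. Cdk1 had 30 and 83 UMIs, a ratio of -1.02 (-1.68 to -0.40). Of these, 17 and 57 came from 7 and 6 cells with 10 or more UMIs of the other G2/M genes. The sum of all 40 genes had a ratio of 0.16 (0.11 to 0.20). It was -0.05 when hormone, acinar enzyme and mitochondrial genes were left out of the total and -0.04 with TMM scaling, so no direction is read from it. The class also differed in make-up: by the hormone with the most UMIs, 1325 and 1648 cells were beta cells and 1186 and 659 alpha cells. The ratio of the sum was -0.11 (-0.17 to -0.05) in beta cells and 0.18 (0.09 to 0.26) in alpha cells, and that of the G2/M genes -0.70 (-0.87 to -0.53) and 1.12 (0.73 to 1.53). Few cells carried these G2/M sums: 5 and 5 beta cells with 10 or more G2/M UMIs held 63.1% and 80.6% of those of beta cells. In alpha cells 1 gluten cell held 41.4%, and no HC cell had 10 or more. The median of the 24 genes was 0.10 beside 0.17 for all genes. The share with 2 or more G2/M UMIs differed by 0.20 points (-0.35 to 0.72), and by 0.15 points (-0.27 to 0.58) when thinned to 8193 UMIs.

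Of the 5 classes, stroma had the lowest ratio. The 40 genes were lower in the gluten library, by a log2 ratio of -0.65 (-0.76 to -0.54), and the G2/M genes by -1.38 (-1.63 to -1.14). The share with 2 or more G2/M UMIs was 3.82% (2.31 to 5.89) and 10.2% (6.90 to 14.4), a difference of -6.40 points (-10.8 to -2.72). When thinned to 2701 UMIs it was 2.04% and 3.45%, a difference of -1.41 points (-4.70 to 1.19), and single draws gave -0.88 points (-3.85 to 1.41) and -2.96 points (-6.49 to -0.23). The G2/M sum rested on few cells: 4 and 6 had 10 or more G2/M UMIs and held 47.1% and 74.4% of it. Of the 12 genes measured there, 3 passed a 2-fold difference toward HC, against 1.23% of 6887 genes, and none toward gluten, against 1.80%. With a minimum of 10 UMIs 16 of 32 were 2-fold apart, against 8.2% of genes. Pclaf had 8 and 50 UMIs, a ratio of -2.92 (-4.21 to -1.83), Top2a 13 and 50 UMIs, a ratio of -2.22 (-3.22 to -1.32), and Cdk1 29 and 51 UMIs, a ratio of -1.09 (-1.80 to -0.40). In mesenchymal cells 5 of 197 and 16 of 132 cells had 2 or more G2/M UMIs (2.54% and 12.1%), and in endothelial cells 14 of 301 and 12 of 142 (4.65% and 8.45%). The difference in mesenchymal cells was -3.44 points (-8.89 to 0.46) when thinned to 2810 UMIs; all 4 mesenchymal cells with 10 or more G2/M UMIs were from the HC library.

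**Figure D5:**
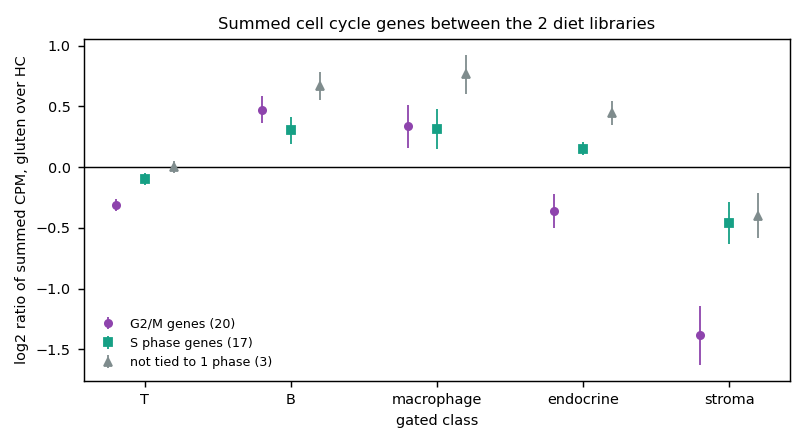
Log2 ratio of summed CPM, gluten over HC (vertical), for the 20 G2/M genes, the 17 S phase genes and the 3 genes not tied to 1 phase, in each gated class (horizontal); bars are exact 95% counting intervals with 1 library per diet. The sums lie above 0 in B cells and macrophages and below 0 in stroma, and G2/M genes are lowest in stroma at -1.38.

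For 9 of the 40 genes, among them Ccna2, Ube2c, Cdc20, Nusap1, Mcm7 and Pclaf, a gene on the other strand overlaps in the annotation, and use of strand in counting is not given in the sources used here. No member overlapped a protein-coding gene on its own strand.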

How the data were processed

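Single cell RNA libraries of handpicked islets, 1 per diet, each pooling cells of 3 mice, were analysed from the deposited count tables. Per the submitters' processing notes, the authors used Cell Ranger 4.0.0 and mm10; the values are raw UMI counts per Ensembl gene and cell barcode, as deposited. No label records their other steps. Of 31053 gene IDs, 30934 matched a symbol (GENCODE vM21), among them all 40 members. The tables held 8200 barcodes with 88268070 UMIs (gluten) and 7758 with 116900677 UMIs (HC).

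Kept were cells of 500 UMIs or more, 200 detected genes or more and no more than 20% of UMIs from mitochondrial genes (7577 and 7565). Scrublet (scanpy 1.11.5) called 3 and 2 doublets by itself (0.0396% and 0.0264%), which is too few for a working threshold, so the 6% of cells with the highest scores were removed (455 and 454). A cell was gated to a class when at least 3 of its markers were seen and its mean scaled marker level was at least 2 times that of the next of 12 classes. Within 1.5 to 2 times lay 72 and 35 T cells and 119 and 48 B cells, just outside the gate; within 2 to 3 times lay 146 and 91 T cells and 261 and 295 B cells, just inside.

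Sums of UMIs per class and library were compared as log2 ratios of CPM with exact conditional binomial intervals, and genes with at least 50 UMIs in the library where they were higher were counted. No p-value was computed. Shares were also taken after each cell was thinned to 1 number of UMIs (the lower of both libraries' 25th percentiles in the class, and 1000), as the exact mean over all draws. TMM factors came from edgeR 4.0.16. The intervals were tested on simulated counts drawn independently from the Poisson and binomial models they assume. That check does not cover UMIs that gather in few cells. The members, the lists of other cycle genes, the gate and the settings were chosen with earlier results of these data known. Genes given with values are those with the most UMIs in each role, those past 2-fold, the 10 other genes with the highest ratio in T cells of the HC library, and the listed cycle genes. Other members given as examples, and the marker scoring rule and the mark of 10 G2/M UMIs, were chosen after values were seen. Promoter windows came from RefSeq (GRCm38.p6).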

Additional observations from a re-analysis of the deposited data

Results flagged for a closer look

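The same contrast, gluten over HC, lay on opposite sides of 0 for the sum of the 40 genes in different classes. The log2 ratio was 0.47 in B cells, 0.48 in macrophages and 0.16 in endocrine cells, and -0.13 in T cells and -0.65 in stroma cells, each with a counting interval that does not hold 0. The difference between classes was not tested, because each diet has 1 library. The directions in T cells and endocrine cells depend on a setting given below. The median depth per cell also differed between the libraries, for instance 5765 and 11417 UMIs in macrophages, and its part in the ratios was not tested.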

How the results depend on the processing

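No paired analysis was possible because each diet has 1 library and the labels give no replicate numbers. Of 120 alternative values, 81 stayed within the counting interval of the reported difference or ratio or within 1.5 times the reported count. Another 4 turned the direction of a sum whose counting interval does not hold 0. The direction turned for T cells with the mean over cells (0.23), and for endocrine cells with TMM factors (-0.036), with hormone, acinar enzyme and mitochondrial genes left out of the total (-0.046) and without 9 members also expressed outside the cycle (-0.0052). TMM factors move the median of endocrine genes by -0.19, and of the other 4 classes by 0.08 or less. Differences of shares whose interval holds 0 were not counted as turned. Their sign changed under some settings in T cells, B cells, macrophages and endocrine cells, for instance from -1.84 to 3.39 points in macrophages when thinned. The causes of these and the following changes were not tested.

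For the log2 ratio of the sum, T cells gave -0.10 with TMM factors, -0.27 without the 9 members and -0.17 with a stricter gate. B cells gave 0.55 with TMM factors, 1.15 with the stricter gate, 0.57 with the mean over cells and, in a setting added after seeing the data, 0.69 without the 1 cell of the most member UMIs in each library. Macrophages gave 0.37 without the 9 members, 0.35 with the highest Scrublet scores kept, 0.60 with a looser gate and 0.63 with the mean over cells. Endocrine cells gave 0.21 with the looser gate and 0.24 with the mean over cells. Stroma gave -1.02 without the 9 members, -0.80 with the highest Scrublet scores kept, -0.47 with the stricter gate, -0.21 with the mean over cells and -0.50 without the 1 cell.

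For the share with 2 or more G2/M UMIs, using the 17 S phase members gave differences of -2.04 points in T cells, -3.71 in B cells, -17.7 in macrophages and -16.1 in endocrine cells, without thinning. The interval held 0 in T cells (-5.15 to 1.14). It lay below 0 in B cells (-6.59 to -0.75), macrophages (-25.9 to -9.25) and endocrine cells (-18.6 to -13.6). All 40 members gave -13.6 points in macrophages and -13.0 in endocrine cells. At 1 or more UMIs the difference was -10.6 points in macrophages and -1.98 in endocrine cells, and at 10 or more, added after seeing the data, -1.39 in stroma. Thinned values in the report are means over all draws, a setting added after seeing the data because single draws of few cells vary. It gave -1.41 points in stroma. In 2 single draws the difference was 2.78 and 3.09 points in T cells, 2.37 and 2.89 in B cells, 1.52 and 2.00 in macrophages, 0.00095 and 0.21 in endocrine cells and -0.88 and -2.96 in stroma.

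At least 1.5-fold apart were 3 of 39 measured members in T cells and 7 of 19 in B cells, against 15.5% and 17.1% of all genes. The same count was 7 of 12 in macrophages and 5 of 24 in endocrine cells, against 15.8% and 12.9%. With a minimum of 10 UMIs, 4 of 39 members were 2-fold apart in B cells, 6 of 34 in macrophages and 16 of 32 in stroma. Over all genes these shares were 10.3%, 10.4% and 8.2%. The setting without Cenpa was added after seeing the data. It gave 2.47 points in T cells, with an interval that no longer holds 0, and turned macrophages to 0.72. Few genes could be compared in macrophages and stroma, where 12 members each reached 50 UMIs.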

Other observations

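Dendritic cells, which present antigen to T cells, were few. Summed over the 40 genes, their level lay below that of T cells and above that of B cells in both libraries, by counting error alone. The gate held 96 cells of the gluten library and 102 of the HC library. The sum of the 40 genes stood at 3105 CPM (2982 to 3233) and 2662 CPM (2569 to 2758), a log2 ratio of 0.22 (0.14 to 0.30) by counting error alone. Of these cells, 30.2% and 30.4% had 2 or more G2/M UMIs, at a median depth of 6822 and 9553 UMIs, and 9.68% and 12.6% when thinned to 1000 UMIs, a difference of -2.96 points (-12.0 to 6.17). In T cells that share was 6.38% and 5.19% at 1000 UMIs, lower than in dendritic cells. The G2/M genes alone stood at 1236 and 1100 CPM in dendritic cells and at 1130 and 1400 CPM in T cells. Which of these classes was higher therefore depended on the measure and the library. Dendritic cells with 10 or more G2/M UMIs numbered 9 and 16. Unthinned, at a greater depth than T cells, they were 9.38% and 15.7% of the class, against 5.72% and 4.84% of T cells. They held 89.3% and 93.5% of the G2/M UMIs of the dendritic class. Among the 16 genes measured there, Hmgb2 stood at 754 and 597 CPM and Ube2c at 270 and 167 CPM, a log2 ratio of 0.69 (0.40 to 0.98). Mki67 stood at 91.2 and 103 CPM, with an interval that holds 0 (-0.62 to 0.26).

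Plasma cells, which secrete antibody, numbered 40 and 19. The 40 genes stood at 2149 CPM (2052 to 2250) and 290 CPM (244 to 343), and 10 of 40 and 2 of 19 cells had 10 or more G2/M UMIs. Those 10 cells held 97.8% of the gluten G2/M UMIs, so the sum rests on them, and the intervals of the shares, 12.7% to 41.2% and 1.30% to 33.1%, overlap. No natural killer cell had 2 or more G2/M UMIs, 0 of 14 and 0 of 10, which allows shares of up to 21.4% and 30% if a count of 0 is taken to allow 3 cells.

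The 935 and 423 cells that passed no gate also carried the genes, at 2067 and 2029 CPM, and 40 and 31 of them had 10 or more G2/M UMIs. In all kept cells 163 and 187 had 10 or more, so a sizeable part of the G2/M-high cells has no class here.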
